A study of Mus musculus with 8 samples.

Results

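The cyclin and cyclin-dependent kinase (CDK) genes of the mouse were examined in H3K36me3 ChIP–seq peak lists from fibroblasts at an early stage of reprogramming. Members were the protein-coding genes of chromosomes 1 to 19 in GENCODE M21 whose symbol is Ccn followed by a letter, or Cdk followed by a number, with the unrelated matricellular genes Ccn1 to Ccn6 left out. Of 20722 protein-coding genes on these chromosomes, 42 were members, 25 cyclins and 17 CDKs. The choice used names and no measured value, though the members and lists were chosen with earlier results of these data known. By their textbook roles, 14 members were placed in a cell cycle list, 13 in a transcriptional list and 15 in neither, called other members here.

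Cyclins have no enzymatic activity of their own, and most act by binding and switching on a CDK partner. In the cell cycle, D-type cyclins with CDK4 and CDK6 act in G1, cyclin E and cyclin A with CDK2 act at entry into and through S phase, and cyclin A and cyclin B with CDK1 drive mitosis. A separate branch of the family is made up of cyclins C, H, K, L and T with their kinases. Most of these phosphorylate RNA polymerase II or its cofactors and so govern initiation, release from pausing and elongation. Cyclin L acts in splicing of transcripts. H3K36me3 is laid down by SETD2, which travels with elongating polymerase, so that the mark lies over the bodies of transcribed genes and rises towards their ends.

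The cells were mouse embryonic fibroblasts (MEFs) from mid-gestation (E13.5 in the labels), all from 1 embryo (Clone 1 in the labels). All of them carried the i4F cassette, from which doxycycline induces Oct4, Sox2, Klf4 and cMyc (OSKM). The MEF library came from cells grown for 72 h in iPSC medium without doxycycline, MEF B12 from cells that also received 2 µM vitamin B12, OSKM from cells given 1 µg/ml doxycycline by the labels (the study's methods print the same figure in mg/ml), and OSKM B12 from cells given both. There was 1 H3K36me3 library per condition, with 1 input library of the chromatin set aside before immunoprecipitation, 8 libraries in all, so no difference between conditions has a replicate check and no test is given. Doxycycline was given only together with the induced factors, and the effects of the drug and of the factors cannot be told apart. A culture is a mixture of cells at different stages, and fewer cells that carry the mark at a gene cannot be told apart from less mark per cell.

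Each gene body was the longest protein-coding transcript. Its covered share is the percentage of its bases inside a peak, and its density is the pileup (H3K36me3 fragments over a base) per 1000000 tags, called scaled pileup, summed over peak bases and divided by the length of the body. Genes with a covered share of at least 10% on average over the 4 lists are called marked, which held for 32 members and for 8966 of all genes. Changes in density are given on the log2 scale with 0.05 added to each value, and a gene is called changed at 2-fold or more on that scale. Values are given in the order MEF, MEF B12, OSKM, OSKM B12 unless stated otherwise. The H3K36me3 libraries held between 29046913 and 33399267 tags. The OSKM library stood apart, with 91.8 Mb in peaks beside 150 to 163 Mb in the other 3 libraries and 2166 peaks at a −log10 q of 5 or more beside 10010 to 13087, and the median marked gene of the genome was lower in it than in MEF by 0.71 on the log2 scale. Among 8 fibroblast markers, 6, 7, 6 and 6 held a peak, with a summed density of 3.87, 4.35, 2.40 and 4.42, and Twist1 had none in any list. Of 8 pluripotency markers, 0, 0, 1 and 0 held one, and of 10 markers of other cell types 2, 3, 1 and 3 did, with summed densities between 0.00264 and 0.156, most of it from the neuronal gene Tubb3 in the 3 libraries other than OSKM. Their part in the results below was not tested.

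A pair of coding exons shows where the mark was called in the mitotic pair of cyclin B1 and CDK1. Exon 8 of Ccnb1 lay inside a peak in MEF, MEF B12 and OSKM B12, and in no peak in OSKM. Exon 5 of Cdk1 lay inside a peak in all 4 lists. Both are printed 5′ to 3′ on the transcribed sense, from GRCm38.p6 (the mm10 build), minus strand, with the exon in capitals and 20 bases of intron in lower case on each side. The Ccnb1 stretch is chr13:100780002-100780152 and the Cdk1 stretch is chr10:69342520-69342730.
Ccnb1 exon 8: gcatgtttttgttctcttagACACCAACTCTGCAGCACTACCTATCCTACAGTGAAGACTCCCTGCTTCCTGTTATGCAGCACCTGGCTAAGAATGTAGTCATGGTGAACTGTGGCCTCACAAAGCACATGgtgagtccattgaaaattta
Cdk1 exon 5: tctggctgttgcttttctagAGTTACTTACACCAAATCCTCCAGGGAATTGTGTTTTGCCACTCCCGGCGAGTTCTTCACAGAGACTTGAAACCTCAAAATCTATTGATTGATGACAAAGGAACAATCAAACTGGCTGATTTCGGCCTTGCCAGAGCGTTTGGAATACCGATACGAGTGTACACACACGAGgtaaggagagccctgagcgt

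Few promoters in the genome held a base of a peak, so that the absence of one among the members matched here does not set them apart. RefSeq promoter windows, from 250 bases before to 50 bases after a transcription start on GRCm38.p6, were matched for 33 of the 42 members (34 windows, since Ccnd3 has a pair of starts). None of the 34 held a base of a peak in any of the 4 lists, where 2.47%, 2.58%, 2.27% and 2.78% of the 31396 windows on chromosomes 1 to 19 did. The windows of 5 cell cycle members are printed below because they hold different motifs and their genes differ in how they were covered. In Ccnb2, Ccnf and Cdk1 the capitals mark TTTGAA, the core of the cell cycle genes homology region through which the DREAM and MuvB complexes act, and CCAAT, the box bound by NF-Y. In Ccnb1 they mark CCAAT alone. In Cdk4 they mark CACGTG, the E-box letters recognised by MYC, which is also 1 of the induced factors. Each motif was sought on both strands, so that CCAAT can appear as ATTGG. The windows are chr13:100786437-100786736, chr9:70421505-70421804, chr17:24251360-24251659 and chr10:69352863-69353162, all on the minus strand, and chr10:127063285-127063584 on the plus strand.
Ccnb1 promoter: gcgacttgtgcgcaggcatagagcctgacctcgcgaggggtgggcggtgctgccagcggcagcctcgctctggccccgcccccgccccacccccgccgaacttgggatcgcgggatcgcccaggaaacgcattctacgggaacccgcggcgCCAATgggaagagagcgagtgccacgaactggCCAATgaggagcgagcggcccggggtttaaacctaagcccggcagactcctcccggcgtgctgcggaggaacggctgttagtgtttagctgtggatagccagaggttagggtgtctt
Ccnb2 promoter: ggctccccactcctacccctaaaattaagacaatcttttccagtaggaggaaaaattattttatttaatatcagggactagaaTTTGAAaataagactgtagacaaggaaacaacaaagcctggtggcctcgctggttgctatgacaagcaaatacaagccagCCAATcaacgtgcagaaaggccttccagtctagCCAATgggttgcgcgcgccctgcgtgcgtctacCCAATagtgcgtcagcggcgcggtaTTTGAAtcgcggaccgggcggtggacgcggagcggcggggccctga
Ccnf promoter: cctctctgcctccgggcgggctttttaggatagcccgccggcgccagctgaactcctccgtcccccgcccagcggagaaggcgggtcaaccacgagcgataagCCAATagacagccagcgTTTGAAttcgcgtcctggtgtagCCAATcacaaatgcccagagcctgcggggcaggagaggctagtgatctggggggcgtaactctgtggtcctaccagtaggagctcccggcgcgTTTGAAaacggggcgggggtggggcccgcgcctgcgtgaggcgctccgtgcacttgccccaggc
Cdk1 promoter: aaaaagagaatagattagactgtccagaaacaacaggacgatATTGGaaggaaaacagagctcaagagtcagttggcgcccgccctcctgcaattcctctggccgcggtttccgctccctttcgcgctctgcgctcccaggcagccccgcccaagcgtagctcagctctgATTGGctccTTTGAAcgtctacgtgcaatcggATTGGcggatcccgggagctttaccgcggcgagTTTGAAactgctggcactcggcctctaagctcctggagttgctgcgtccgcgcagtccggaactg
Cdk4 promoter: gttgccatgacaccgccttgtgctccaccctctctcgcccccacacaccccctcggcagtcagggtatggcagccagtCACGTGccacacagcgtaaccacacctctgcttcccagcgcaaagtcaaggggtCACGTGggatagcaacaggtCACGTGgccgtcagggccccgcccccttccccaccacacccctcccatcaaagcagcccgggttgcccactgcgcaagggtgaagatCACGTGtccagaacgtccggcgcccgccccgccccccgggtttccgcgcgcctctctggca

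TTTGAA was found in the windows of 4 members (Ccnb2, Ccnf, Cdk1 and Ccni), of which 3 were cell cycle members and 0 transcriptional, and in 17.9% of all 32851 windows. CCAAT was found in 17 members, 7 of the cell cycle and 5 of the transcriptional list, and in 37.4% of all windows. CACGTG was found in 6 members (Cdk4, Cdk6, Cdk7, Cdk8, Cdk18 and Cdk20) and in 7.15% of all windows. These matches describe letters only. The copies of TTTGAA and CCAAT in the windows shown did not overlap.

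Most members held a peak in each library. In MEF, 37 of 42 members (88.1%) held a peak, beside 52.6% of all protein-coding genes, and 22 of 42 were covered over at least 50% of their length, beside 22.2% of all protein-coding genes. In OSKM, 34 of 42 held a peak, beside 49.7%, and 16 of 42 were covered over at least 50%, beside 11.9%. The median covered share of the 14 cell cycle members was 66.7%, 67.7%, 45.5% and 69.4%, and that of the 13 transcriptional members was 60.1%, 71.8%, 39.7% and 68.9%. Over the 15 other members it was 23.2%, 25.4%, 10.0% and 22.5%, and over all protein-coding genes 1.56%, 2.55%, 0% and 2.65%. Both named lists thus had their lowest median in OSKM. The scaled pileup inside the peaks of marked members was also lowest in OSKM, with a median of 0.577, 0.718, 0.488 and 0.732 in the cell cycle list, 0.663, 0.704, 0.497 and 0.719 in the transcriptional list and 0.579, 0.648, 0.471 and 0.667 in all marked genes.

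**Figure D1:**
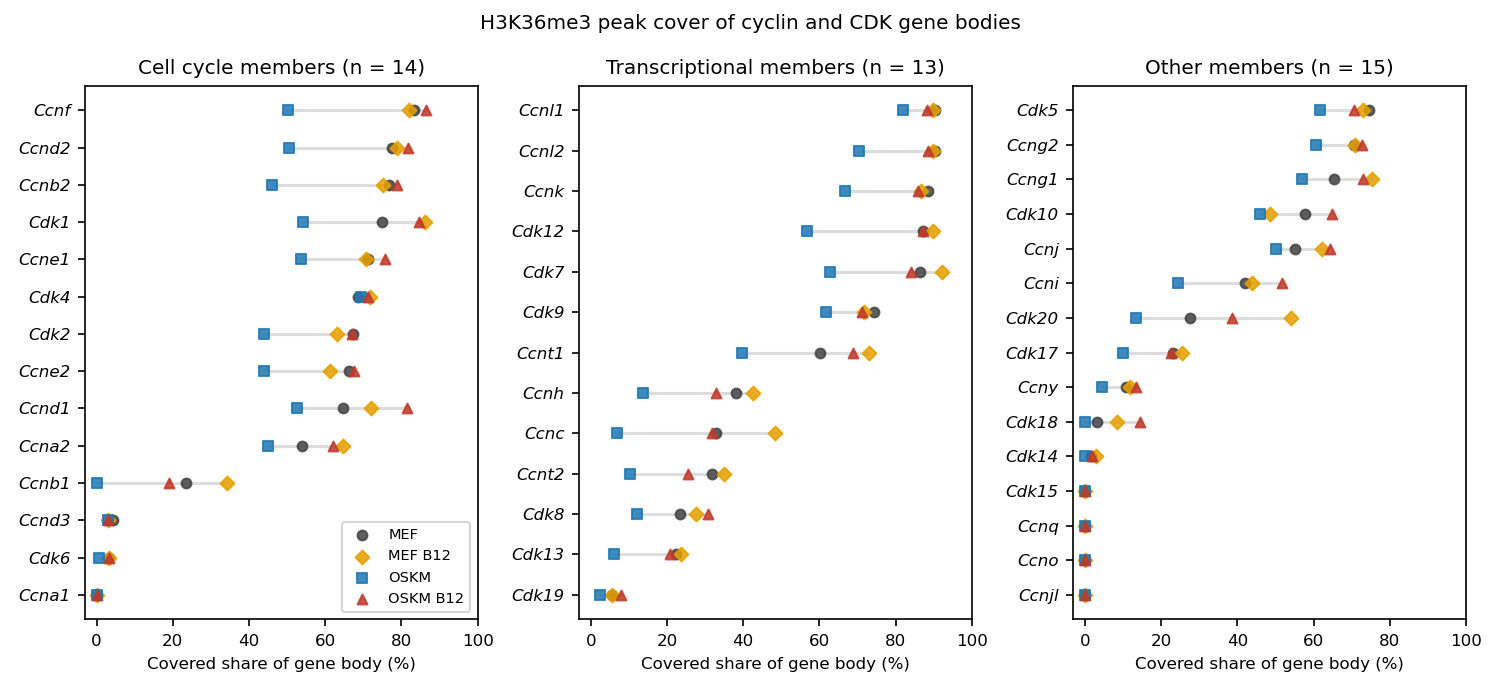
Covered share of the gene body (%, horizontal axis) of the 14 cell cycle, 13 transcriptional and 15 other members in the 4 libraries, 1 point per library, with a grey line from the lowest to the highest. The OSKM square is the leftmost point for 31 of the 32 marked members, and Cdk4, with its 4 points between 68.6% and 71.8%, is the exception.

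Among the G1 members, the 3 D-type cyclins were not alike. Ccnd1, cyclin D1, was covered over 64.7, 72.0, 52.5 and 81.4% of its body, with densities of 0.357, 0.464, 0.269 and 0.623. Ccnd2, cyclin D2, was covered over 77.6, 78.8, 50.5 and 81.7%, with densities of 0.448, 0.528, 0.241 and 0.560. Both were lowest in OSKM and highest in OSKM B12. Ccnd1 had the smallest fall of the 11 marked cell cycle members from MEF to OSKM, −0.35 on the log2 scale, with a density ratio of 0.754 (95% counting interval 0.647 to 0.876). It also had the largest excess of OSKM B12 over MEF of all marked members, 0.72, with a ratio of 1.74 (95% counting interval 1.54 to 1.98). Other genes overlap 17.8% of its body, where the source of the signal cannot be told apart. Over the remaining 8168 bases its covered share was 65.3%, 68.0%, 63.9% and 77.4% and its density 0.366, 0.473, 0.328 and 0.592, with an OSKM to MEF ratio of 0.895. Ccnd3, cyclin D3, has a long body of 94633 bases of which 4.37, 2.90, 2.92 and 2.99% lay in peaks, so that it was not marked. A RefSeq start lies 88416 bases downstream of the annotated one, and the 6217 bases from there to the end of the gene were covered over 66.5%, 44.2%, 38.4% and 45.5%, with densities of 0.392, 0.359, 0.180 and 0.415. Over that stretch the density of Ccnd3 in MEF lay between those of Ccnd1 and Ccnd2, and OSKM again had the lowest value.

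Cdk4, the kinase partner of the D-type cyclins (ENSMUSG00000006728.12, chr10:127063534-127067920, plus strand), was covered over 68.6, 71.8, 69.5 and 71.1%. It was the only marked member whose covered share was not lower in OSKM than in MEF. Its densities were 0.680, 0.766, 0.394 and 0.752, the highest of the cell cycle list in every library, so that its OSKM value lay below the others by height and not by length. A single peak was called over it in each list, of 3964, 4232, 3946 and 4356 bases, and over the bases shared by all 4 lists the OSKM pileup was 0.573 of the MEF pileup, the lowest such ratio among the members. Cdk6, the other G1 kinase, spans 187116 bases and was covered over 3.28, 3.32, 0.757 and 3.23%.

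The E-type cyclins and their kinase act around entry into S phase. Ccne1, cyclin E1, was covered over 71.2, 70.8, 53.8 and 75.8%, with densities of 0.491, 0.548, 0.283 and 0.596. Ccne2, cyclin E2, was covered over 66.3, 61.3, 44.0 and 67.6%, with densities of 0.361, 0.371, 0.189 and 0.383, but Ints8 on the opposite strand overlaps 41.4% of it, and over the 7804 bases that no other gene overlaps its covered share was 42.4%, 33.9%, 15.97% and 44.8%. Cdk2, their kinase, was covered over 67.2, 63.0, 43.9 and 67.0%, with densities of 0.358, 0.518, 0.205 and 0.510. In all 3 genes OSKM had the lowest value of both measures. Over the bases unique to Ccne2 the densities were 0.204, 0.188, 0.0565 and 0.253, so that its fall from MEF to OSKM was larger there than over the whole body.

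Ccna2, the somatic cyclin A, was covered over 54.0, 64.6, 45.1 and 62.1%, with densities of 0.392, 0.509, 0.223 and 0.463. Its peaks ran on for 10968, 10738, 2371 and 10868 bases past its end, where the convergent gene Exosc9 lies. Ccna1, the germline cyclin A, had no peak in any list. Ccnb2, cyclin B2, was covered over 76.8, 75.1, 46.0 and 78.8%, with densities of 0.498, 0.539, 0.246 and 0.538. Cdk1, the mitotic kinase (ENSMUSG00000019942.13, chr10:69335146-69352938, minus strand), was covered over 74.8, 86.1, 54.3 and 84.6%, with densities of 0.481, 0.619, 0.261 and 0.619. Ccnf, cyclin F, an F-box protein that marks substrates for destruction in G2, was covered over 83.3, 81.9, 50.3 and 86.5%, with densities of 0.440, 0.499, 0.218 and 0.586. These last 3 genes carry TTTGAA in the windows printed above. Each was lowest in OSKM and at or above its MEF level in OSKM B12. That order was not particular to them. All 32 marked members had a lower density in OSKM than in MEF, as did 8822 of all 8966 marked genes. In OSKM B12, 27 members had a higher density than in MEF, as did 8267 of all 8966 marked genes.

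Ccnb1, cyclin B1 (ENSMUSG00000041431.16, chr13:100778650-100786570, minus strand), stood apart from the other mitotic genes. Its covered share was 23.4, 34.3, 0 and 18.96% and its density 0.0885, 0.148, 0 and 0.0858. Peaks of 1044 and 810 bases were called in MEF, of 2559 and 1267 bases in MEF B12 and of 1502 bases in OSKM B12, and none in OSKM. Exon 8, printed above, lay in 1 of them in each of these 3 libraries. No ratio of densities is given against the OSKM library, in which Ccnb1 is listed with no peak. The log2 change of −1.47 from MEF to OSKM and that of 1.44 from OSKM to OSKM B12 are set by the 0.05 that was added, so that its 2-fold calls and its place at the end of the ranges given later rest on that value, and enrichment below the calling threshold was not detectable at this depth. With at most 2 peaks a library and a density of at most 0.148, this was the weakest signal of the marked cell cycle members.

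In the transcriptional list, CDK7 and cyclin H form the kinase module of TFIIH, which acts at initiation and also activates cell cycle CDKs. Cdk7 was covered over 86.4, 92.3, 62.7 and 84.0%, with densities of 0.578, 0.693, 0.309 and 0.636. Ccnh was covered over 38.1, 42.7, 13.8 and 32.9%, with densities of 0.177, 0.223, 0.0560 and 0.164. The pair thus differed in level in every library, and the fall from MEF to OSKM was −0.80 in Cdk7 and −1.10 in Ccnh. In Ccnh the first peak began at 9.01%, 6.63%, 57.0% and 6.88% of the body, so that the OSKM peaks began far from the start.

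CDK9 with cyclin T1 or T2 is P-TEFb, which releases paused polymerase. Cdk9 was covered over 74.2, 71.8, 61.6 and 71.2%, with densities of 0.593, 0.713, 0.364 and 0.741. Ccnt1 was covered over 60.1, 73.0, 39.7 and 68.9%, with densities of 0.401, 0.479, 0.198 and 0.482. Ccnt2 was covered over 31.8, 34.9, 10.4 and 25.6%, with densities of 0.182, 0.222, 0.0616 and 0.176. All 3 were lowest in OSKM, the short Cdk9 falling least (−0.63) and the longer Ccnt2 most (−1.06).

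CDK8, its paralogue CDK19 and cyclin C form the kinase module of Mediator. Ccnc (ENSMUSG00000028252.20, chr4:21727726-21759922, plus strand) was covered over 32.8, 48.4, 6.94 and 31.8%, with densities of 0.151, 0.220, 0.0283 and 0.140. The OSKM density of Ccnc was 0.188 (95% counting interval 0.151 to 0.232) of that in MEF, and the OSKM B12 density was 4.93 (95% counting interval 3.97 to 6.13) times that in OSKM. In peaks, Ccnc had 10, 14, 4 and 12. Cdk8 was covered over 23.4, 27.6, 12.1 and 30.8%, with densities of 0.127, 0.149, 0.0538 and 0.173. Cdk19, over 134511 bases, was covered over 5.59, 5.64, 2.42 and 7.90% and was not marked.

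CDK12 and CDK13 with cyclin K phosphorylate polymerase along the gene body, the phase of transcription during which H3K36me3 is laid down. Ccnk was covered over 88.5, 86.7, 66.9 and 85.9%, with densities of 0.607, 0.718, 0.377 and 0.774. Cdk12 was covered over 87.2, 89.8, 56.7 and 87.1%, with densities of 0.575, 0.691, 0.280 and 0.643. Cdk13, with a body of 94783 bases, was covered over 22.5, 23.6, 6.00 and 20.8%, with densities of 0.110, 0.131, 0.0295 and 0.107. Cdk12 showed the change in peak shape most plainly: 4, 2, 18 and 4 peaks were called over it, the longest of 34078, 39954, 5984 and 30691 bases, so that a nearly unbroken domain in 3 libraries was a row of short peaks in OSKM.

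Cyclins L1 and L2 act with the CDK11 kinases in splicing of transcripts. Ccnl1 was covered over 90.3, 89.8, 81.9 and 88.2%, with densities of 0.708, 0.845, 0.443 and 0.734. Ccnl2 was covered over 90.3, 89.9, 70.4 and 88.4%, with densities of 0.789, 0.961, 0.458 and 0.902, the highest of all members in all 4 libraries. These were the most completely covered members in MEF, and Ccnl1 kept the largest covered share of all members in OSKM. Ccnl1 also had the smallest rise of any marked member from OSKM to OSKM B12 (0.67).

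**Figure D2:**
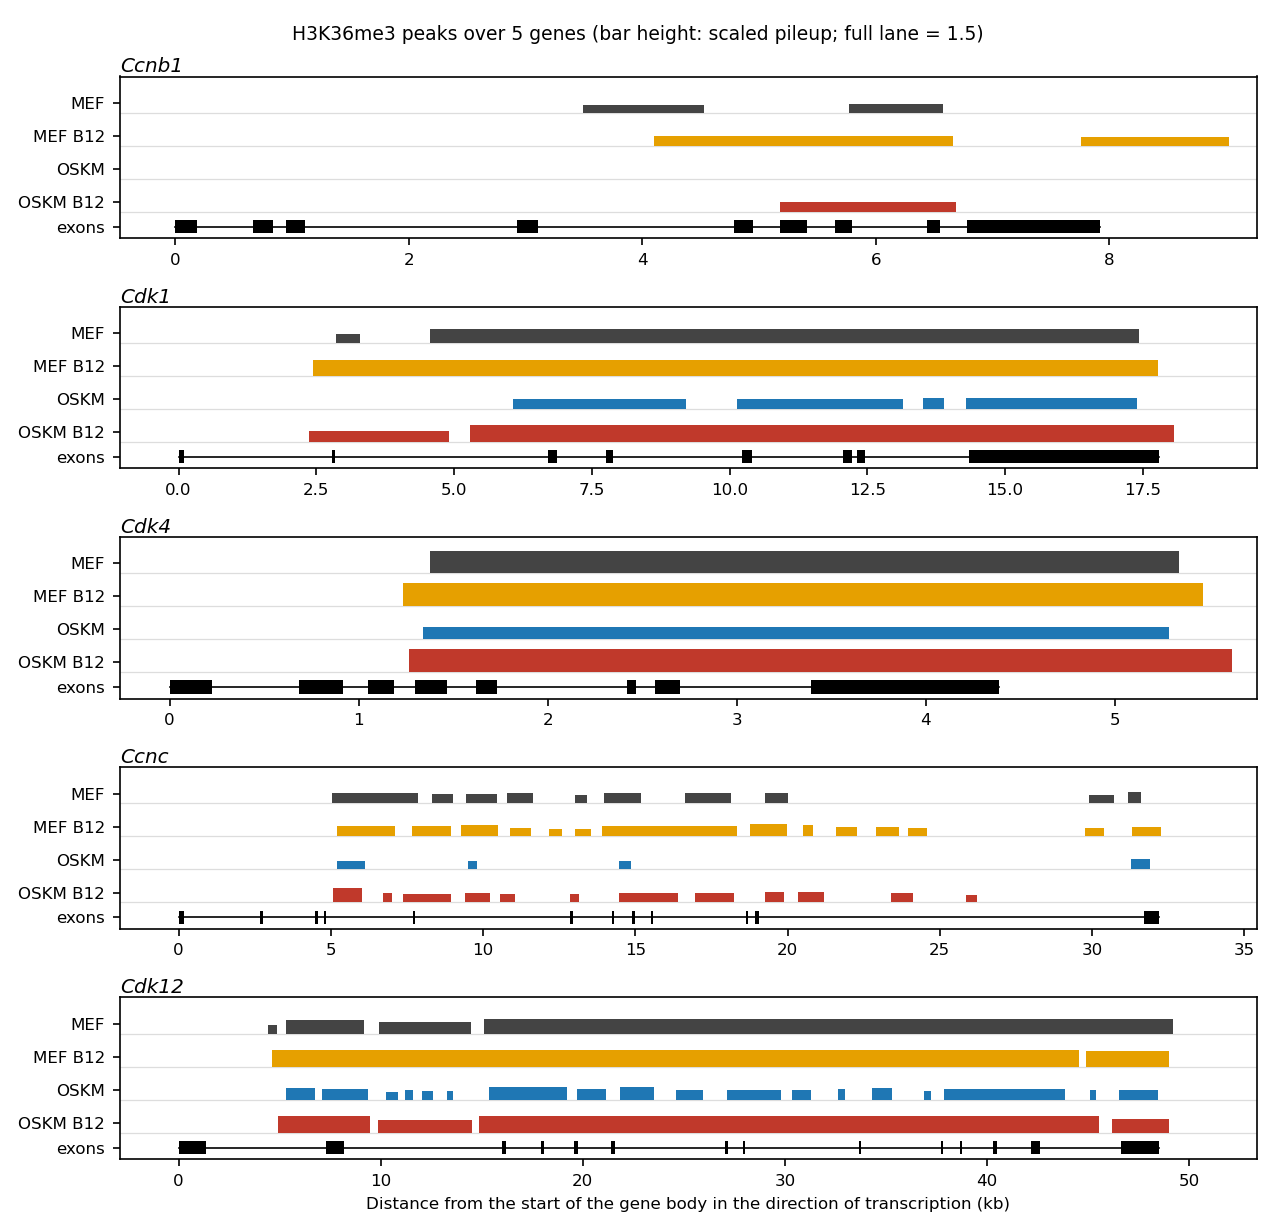
Peaks over 5 genes in the 4 libraries, by distance from the start of the gene body (kb, horizontal axis), with bar height as scaled pileup (a full lane is 1.5) and exons in black. Ccnb1 has no bar in OSKM, Cdk1 and Cdk12 have 4 and 18 shorter peaks there, Ccnc has 4 peaks in that lane, and Cdk4 keeps a single peak of similar length and lower height.

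Of the 15 other members, 9 were marked. Those with the highest mean density were Ccng2, Cdk5 and Ccng1. Ccng2, cyclin G2, a cyclin that is high in arrested cells, was covered over 70.6, 70.8, 60.5 and 72.6%, with densities of 0.579, 0.621, 0.317 and 0.624. Cdk5, known for its role in neurons, was covered over 74.5, 73.0, 61.7 and 70.7%, with densities of 0.439, 0.524, 0.297 and 0.549. Ccng1, cyclin G1, a p53 target, was covered over 65.3, 75.4, 57.0 and 73.0%, with densities of 0.424, 0.540, 0.256 and 0.477. All 3 are shorter than 10 kb and held 1 or 2 peaks in every library.

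The largest falls from MEF to OSKM among the other members were in Cdk17 and Ccni. Cdk17 had densities of 0.128, 0.142, 0.0449 and 0.136 (−0.91 from MEF to OSKM), and Ccni had 0.217, 0.250, 0.103 and 0.275 (−0.81). The smallest falls were in Ccnj and Cdk5. Ccnj, with densities of 0.337, 0.467, 0.246 and 0.471, fell by 0.38 on the log2 scale, and Cdk5 by 0.50. None of these members was higher in OSKM than in MEF.

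Cdk10 had densities of 0.298, 0.268, 0.195 and 0.388 and was the only marked member with a lower density in MEF B12 than in MEF, by a ratio of 0.901 (95% counting interval 0.742 to 1.09), an interval that includes 1. The readthrough gene Gm20388 overlaps all of its body. The remaining 2 marked members differed in level. Ccny, with a body of 137847 bases, was covered over 10.8, 11.8, 4.37 and 13.46%, and Cdk20 over 27.6, 54.2, 13.3 and 38.7%. Cdk14, the longest member at 576807 bases, and Cdk18 held peaks in MEF, MEF B12 and OSKM B12 and none in OSKM, with covered shares up to 2.92% and 14.5%, and were not marked. Ccnjl, Ccno, Ccnq and Cdk15 had no peak in any list.

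The comparison of OSKM with MEF addressed the mark after induction of the factors without added B12. All 32 marked members had a lower density in OSKM, where 98.4% of all marked genes did. The covered share was lower in 31 of 32, beside 94.8% of all marked genes. The median log2 change was −0.77 in the 11 marked cell cycle members (range −1.47 to −0.35), −0.83 in the 12 marked transcriptional members (−1.36 to −0.62), −0.60 in the 9 other members and −0.71 over all marked genes, and the middle 50% of all marked genes lay between −0.93 and −0.55. The shift of the members was thus close to that of the genome. At 2-fold or more, 5 of 32 members were lower, beside 19.4% of all marked genes. They were Ccnb1 among the cell cycle members and Ccnc, Ccnh, Ccnt2 and Cdk13 among the transcriptional members, and no other member. Cdk13 lay at the line (−1.01) and was no longer past it over bases that no other gene overlaps (−0.93) or on the principal transcript (−0.99), whereas Ccne2 passed it over bases of its own (−1.25). The 4 transcriptional genes had densities of 0.151, 0.177, 0.182 and 0.110 in MEF and 0.0283, 0.0560, 0.0616 and 0.0295 in OSKM. Each had a covered share of at most 38.1% in MEF and at most 13.8% in OSKM. The density ratio of OSKM to MEF was 0.316 (95% counting interval 0.262 to 0.379) in Ccnh, 0.338 (95% counting interval 0.291 to 0.392) in Ccnt2 and 0.269 (95% counting interval 0.237 to 0.304) in Cdk13, where the intervals cover counting error only.

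Both the height and the length of the peaks contributed to these values. Over bases in a peak in all 4 lists, the median pileup ratio of OSKM to MEF was 0.767 in 10 cell cycle members, 0.770 in 12 transcriptional members and 0.780 in 8591 of all marked genes. The median ratio of covered shares was 0.665, 0.655 and 0.662 in the same order. Ccnd1 kept most of its height (0.922) and Cdk20, alone among the members, was not lower (1.05). Members with at least 1 peak at a −log10 q of 5 or more numbered 26, 27, 4 and 29. Such peaks were also fewest in OSKM across the genome, with 10010, 11734, 2166 and 13087 in the 4 lists. The share of all genes that held one is not given here, so the member counts are not read as particular to the members. The longest peak of a marked member had a median length of 5444.5, 8571.5, 3283 and 8910 bases.

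**Figure D3:**
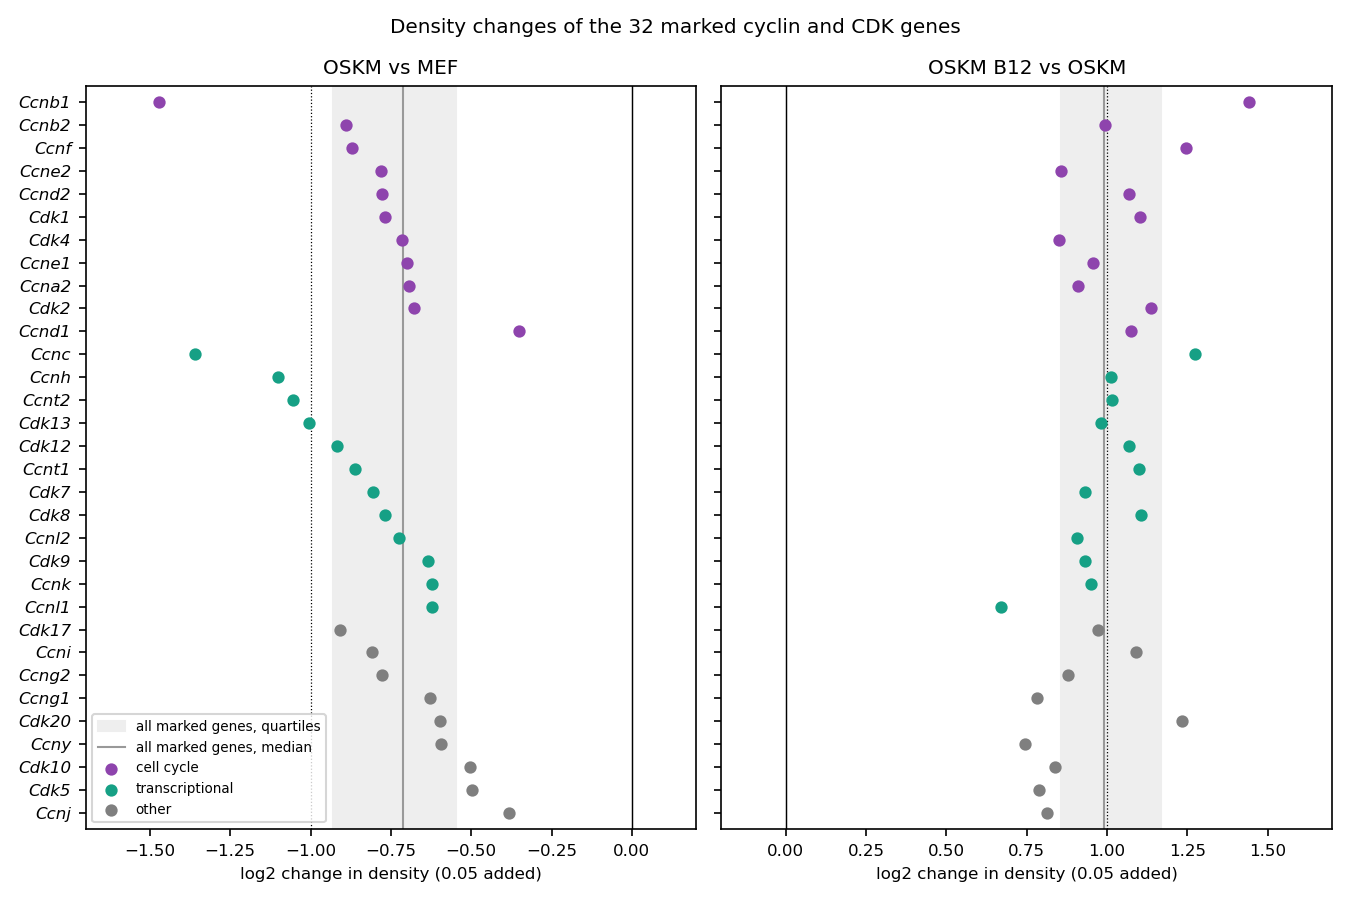
Log2 change in density (0.05 added, horizontal axis) of the 32 marked members from MEF to OSKM (left) and from OSKM to OSKM B12 (right), 1 point per gene, coloured by list, with the quartiles of all 8966 marked genes as a grey band and 2-fold as dotted lines. All points lie below 0 on the left and above 0 on the right, most within or near the band, and Ccnb1 and Ccnc lie lowest on the left.

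The comparison of OSKM B12 with OSKM addressed added B12 during reprogramming. Every marked member had a higher density and a larger covered share in OSKM B12, as did 99.7% and 97.4% of all marked genes. The median log2 change was 1.07 in the cell cycle list (range 0.85 to 1.44), 1.00 in the transcriptional list (0.67 to 1.27), 0.84 in the other members and 0.99 over all marked genes. At 2-fold or more, 14 of 32 members were higher, 6 cell cycle, 6 transcriptional and 2 other, beside 48.3% of all marked genes. The 6 cell cycle members were Ccnb1 (1.44), Ccnf (1.25), Cdk2 (1.14), Cdk1 (1.10), Ccnd1 (1.08) and Ccnd2 (1.07). The 6 transcriptional members were Ccnc (1.27), Cdk8 (1.11), Ccnt1 (1.10), Cdk12 (1.07), Ccnt2 (1.02) and Ccnh (1.01). Over bases that no other gene overlaps, Ccnd1 was no longer past 2-fold (0.77) and Ccne2 was (1.51). Ccnb2 (0.99) and Cdk13 (0.98) lay just under the 2-fold line. For Cdk1 the density ratio was 2.37 (95% counting interval 2.14 to 2.63), and for Ccnf 2.69 (95% counting interval 2.46 to 2.93).

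The comparison of OSKM B12 with MEF shares a library with each of the comparisons above. No member differed by 2-fold in either direction, where 1.43% of all marked genes were higher and 0.178% lower by that much. Density was lower in OSKM B12 in 5 of 32 members, beside 7.76% of all marked genes. They were Ccnb1 (−0.03), Ccnc (−0.08), Ccnh (−0.09), Ccnt2 (−0.04) and Cdk13 (−0.03), and the counting intervals of all 5 ratios included 1. The covered share was lower in OSKM B12 than in MEF in 10 of 12 transcriptional members and in 2 of 11 cell cycle members, beside 28.2% of all marked genes. The exceptions in the transcriptional list were Ccnt1 and Cdk8, and the 2 cell cycle genes were Ccnb1 and Cdk2. Most of these differences were small, with a median ratio of covered shares of 0.971 in the transcriptional and 1.04 in the cell cycle list.

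In MEF B12 against MEF, without induction, density was higher in 31 of 32 members, Cdk10 being the exception, beside 91.9% of all marked genes. The covered share was higher in 21, beside 70.9%. No member reached 2-fold, where 0.848% of all marked genes were higher and 0.245% lower by that much. The median log2 change was 0.22 in the cell cycle list, 0.24 in the transcriptional list and 0.21 over all marked genes. The largest rises were in Cdk20 (0.79), Ccnb1 (0.52) and Cdk2 (0.48). Cdk2 rose by height, with a pileup ratio of 1.48 over shared bases and a covered share of 67.2% in MEF and 63.0% in MEF B12, whereas Cdk20 had a pileup ratio of 1.06 and a covered share of 27.6% and 54.2%.

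The position of the mark along the body differed between the lists. The body of each marked member was divided into 5 equal parts from start to end. In the first part, the mean covered share of the cell cycle members was 7.41%, 10.7%, 1.51% and 12.2%, and 7 of 11 had none there in MEF. The transcriptional members had 27.4%, 28.5%, 8.65% and 22.9%, with 2 of 12 having none in MEF, and all marked genes had 13.7%, 15.1%, 7.67% and 15.8%. In the fourth part the cell cycle members were nearly filled, at 93.6%, 100%, 77.5% and 97.5%, beside 69.0%, 78.6%, 55.9% and 72.8% in the transcriptional members and 68.0%, 71.5%, 48.6% and 71.7% in all marked genes. In each of the 4 libraries the cell cycle members had less cover than the transcriptional members in the first part and more in the last 3 parts. The lists also differ in length. Among the 5 marked members of each list between 10 and 30 kb, the first part was covered over 16.3%, 23.5%, 3.33% and 23.3% in the cell cycle members and over 47.6%, 51.6%, 9.57% and 41.5% in the transcriptional members. In this class the order in the last 3 parts was reversed in OSKM. The shares there were 55.8%, 81.9% and 74.3% in the cell cycle and 74.6%, 82.1% and 79.4% in the transcriptional members. In MEF B12 it was reversed in the last part alone (93.8% and 94.0%). MEF and OSKM B12 kept the order in all 3 parts.

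**Figure D4:**
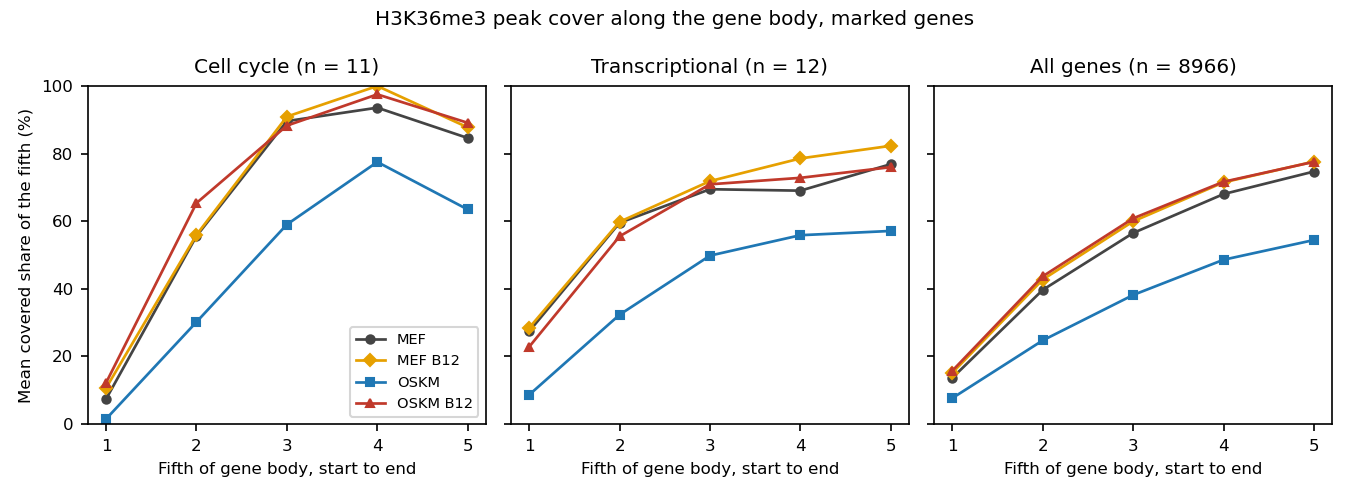
Mean covered share (%, vertical axis) of each of 5 equal parts of the gene body from start to end (horizontal axis) in the 11 marked cell cycle members, the 12 marked transcriptional members and all 8966 marked genes, 1 line per library. The OSKM line lies below the other 3 in every part of every panel, and the first part of the cell cycle members is covered over 1.51% to 12.2%.

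With all called peaks, longer members tended to have larger falls. The relation was not computed with peaks at a −log10 q of at least 5. There the long Cdk13 (−0.74) and Ccnt2 (−0.72) fell less than the short Cdk4 (−3.87) and Ccnl1 (−3.92), whereas the long Cdk12 fell by −3.51. The larger of these falls are set by the 0.05 that was added. Between the length of the body and the log2 change from MEF to OSKM, Spearman's rho was −0.50 over the 32 marked members and −0.18 over the 8966 marked genes, as a description of genes that share the same pair of libraries. Members under 10 kb had a median change of −0.66 (12 marked members), those of 10 to 30 kb −0.78 (12) and those of at least 30 kb −0.91 (8), beside −0.63, −0.69 and −0.78 over all marked genes of these classes. Of the 8 longest marked members, 6 were transcriptional and 0 were cell cycle genes. Within the class of 10 to 30 kb, which held 5 marked members of each list, the median change was −0.78 in the cell cycle and −0.73 in the transcriptional members. Ccnb1, at 7921 bases, did not follow this order and had the largest fall on the log2 scale with 0.05 added.

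**Figure D5:**
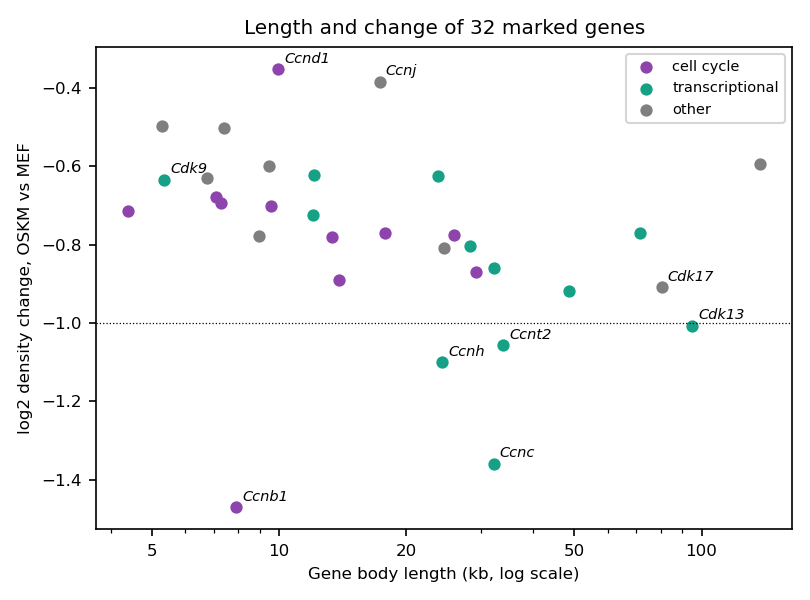
Length of the gene body (kb, log scale, horizontal axis) against the log2 change in density from MEF to OSKM (vertical axis) for the 32 marked members, coloured by list, with the 2-fold line dotted. The short Ccnb1 and the longer Ccnc, Ccnh, Ccnt2 and Cdk13 lie below the line.

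Genes that act with the members were counted from lists of cell cycle regulators and of partners of the transcriptional CDKs. Of 34 regulators, 27 were marked, all 27 were lower in OSKM than in MEF, 10 of them by 2-fold or more, and 15 were higher by 2-fold or more in OSKM B12 than in OSKM, where 98.4%, 19.4% and 48.3% of all marked genes were. Of 19 partners, 16 were marked, all 16 were lower in OSKM, 2 by 2-fold or more, and 4 were higher by 2-fold or more in OSKM B12, beside the same shares of all marked genes. The median change from MEF to OSKM was −0.86 in the regulators and −0.58 in the partners, beside −0.71 over all marked genes. The regulators with the highest density were Cdc25a, a phosphatase that activates CDK2, Tfdp1, the dimer partner of E2F, and Fzr1, an activator of the anaphase-promoting complex. Cdc25a was covered over 87.9, 85.9, 84.6 and 85.6%, Tfdp1 over 93.7, 94.5, 86.8 and 95.03% and Fzr1 over 81.7, 80.2, 66.1 and 81.5%. These 3 were covered over at least 66.1% in OSKM.

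The inhibitors of CDKs and the protein they guard ranged widely in cover. Cdkn1a, which encodes p21, was covered over 45.8, 44.6, 28.4 and 34.7%, Rb1, the retinoblastoma protein that CDKs phosphorylate, over 4.75, 5.12, 0.418 and 5.75% of its 130321 bases, and Cdkn2a, with the products p16 and p19ARF, had no peak in any list. Cdkn1b, Cdkn1c and the CDK1 inhibitory kinase gene Pkmyt1 were singled out after their values were seen, being the marked regulators with no peak in OSKM. Cdkn1b, which encodes p27, was covered over 21.7, 25.8, 0 and 32.3%. Cdkn1c, which encodes p57, was covered over 21.1, 16.4, 0 and 71.0%, and Pkmyt1 over 19.1, 29.2, 0 and 33.0%. In all 3 the share in OSKM B12 was above that of both MEF libraries, by most in Cdkn1c.

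Among the partners of the transcriptional CDKs, Supt5, a pausing and elongation factor phosphorylated by P-TEFb, and the TFIIH helicases Ercc2 and Ercc3 had the highest densities. Supt5 was covered over 73.0, 75.6, 70.8 and 75.7%, Ercc2 over 83.6, 86.7, 83.9 and 85.3% and Ercc3 over 88.8, 93.2, 77.9 and 93.6%. Hexim1, the P-TEFb inhibitor, was covered over 0, 12.1, 0 and 0.0858% and was not marked.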

How the data were processed

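H3K36me3 and input libraries from 4 conditions, 1 of each per condition, were sequenced as single reads of 75 bases. Per the labels and methods, reads were mapped by the authors to mm10 using bowtie 0.12.9, duplicates were removed, and broad peaks were called with MACS2 2.2.6 separately for every H3K36me3 library and its matched input, at q cut-offs of 0.05 (strong) and 0.1 (broad); replicates were not pooled. Per the file headers, the deposited signal is the mean pileup of unscaled fragments in a peak, the fold enrichment is a ratio to the input, and significance is the −log10 of p and q. From these, gene bodies (GENCODE M21), covered shares and densities per 1000000 tags were computed with Python 3.11.15, numpy 2.4.6, pandas 2.3.3 and scipy 1.17.1. Intervals are exact binomial 95% intervals on tags estimated from pileup and fragment length, and cover counting error only, since reads without molecular identifiers are not independent molecules. The depth of 29046913 to 33399267 tags limits how weak an enrichment a peak can show. The arithmetic was tested on simulated data.

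Each condition had 1 library, so no test was made. The members and lists were chosen with earlier results of these data known. Every marked cell cycle and transcriptional member was given with its values. Of the other members, those with the 3 highest mean densities, the 2 largest and the 2 smallest falls were named, with those that had no peak. Of each pathway list, the 3 highest densities, Cdkn1a, Cdkn2a, Rb1 and Hexim1 were named, and 1 further gene under this rule is not reported here. Alternatives were other pseudocounts, scalings, peak thresholds, fold thresholds, gene bodies and sets of marked genes. Genes on the sex chromosomes and unplaced scaffolds were left out.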

Additional observations from a re-analysis of the deposited data

Results flagged for a closer look

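The difference in density between B12 and no B12 ran in opposite directions in the 2 states of 1 member. In Cdk10 the log2 change with B12 was −0.13 in MEF and 0.84 in OSKM, so that its single MEF library moved one way and its single OSKM library the other. The difference between the 2 changes was not tested, since each rests on 1 library per condition. Its density was 0.298 in MEF and 0.268 in MEF B12 without induction, and 0.195 and 0.388 in OSKM and OSKM B12, and the interval of the ratio of MEF B12 to MEF, 0.742 to 1.09 for counting error only, included 1. All of the body of Cdk10 is overlapped by the readthrough gene Gm20388, and the part of that gene in these values was not tested.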

How the results depend on the processing

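No median changed direction under any alternative. Of 156 alternative values, 117 stayed within an interval around the reported median, or within 1.5 times the reported count, and 39 did not. The interval ran from −0.89 to −0.68 for the cell cycle change from MEF to OSKM. For the cell cycle covered share in MEF it ran from 4.37% to 76.8%. It was so wide that a fall from 66.7% to 31.1% counted as staying within it.

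The median log2 change from MEF to OSKM in the marked cell cycle members (−0.77) was −0.32 over bases called in all 4 libraries, −3.14 with peaks at a −log10 q of at least 5 and −0.53 with a pseudocount of 0.2. In the transcriptional members (−0.83) it was −0.34 over shared bases, −0.87 with the stricter peaks and −0.55 with a pseudocount of 0.2. With the stricter peaks all marked genes had −1.21. From OSKM to OSKM B12 the cell cycle median (1.07) was 0.54 over shared bases, 3.48 with the stricter peaks and 0.73 with a pseudocount of 0.2. Only 4 of all members held a stricter peak in OSKM. The medians of −3.14 and 3.48 are thus set by the 0.05 that was added and do not measure the size of a change. The transcriptional median (1.00) was 0.49 over shared bases, 1.32 with the stricter peaks, 0.90 with unscaled pileup, 1.20 with a pseudocount of 0.01 and 0.64 with one of 0.2. From MEF to MEF B12 the cell cycle median was 0.066 with unscaled pileup, and the transcriptional median was 0.22 with fold enrichment, 0.11 over shared bases, 0.092 with unscaled pileup and 0.19 with a pseudocount of 0.2.

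The number of cell cycle members lower in OSKM at 2-fold (1) became 2 on bases that no other gene overlaps, 3 with fold enrichment, 10 at 1.5-fold, 0 among genes covered over at least 25%, 0 over shared bases, 7 with the stricter peaks, 3 after merging peaks up to 1 kb apart and 0 with a pseudocount of 0.2. That of transcriptional members (4) became 12 at 1.5-fold, 0 over shared bases and 0 with a pseudocount of 0.2. With the stricter peaks the transcriptional members past 2-fold were different genes. Ccnc (−0.19), Ccnh (0), Ccnt2 (−0.72) and Cdk13 (−0.74) no longer passed it, whereas Ccnk, Ccnl1, Ccnt1, Cdk7 and Cdk12 did. The number of cell cycle members higher in OSKM B12 than in OSKM (6) became 11 at 1.5-fold, 0 over shared bases, 10 after merging, 2 with unscaled pileup and 0 with a pseudocount of 0.2. That of transcriptional members (6) became 12 at 1.5-fold, 0 over shared bases, 1 with unscaled pileup, 10 with a pseudocount of 0.01 and 0 with one of 0.2. At 1.5-fold, 69.3% of all marked genes were lower in OSKM and 95.7% higher in OSKM B12. At 2-fold, the shares of all marked genes lower in OSKM were 53.7% with the stricter peaks, 37.0% with fold enrichment, 19.4% after merging, 0.926% with a pseudocount of 0.2 and 0% over shared bases. Among all genes covered over at least 25% the share was 19.1%, and Ccnb1 was not in that set. The share on bases that no other gene overlaps is not given here, so that count is not read as particular to the members. Those higher in OSKM B12 were 46.9% after merging, 29.3% with unscaled pileup, 73.3% with a pseudocount of 0.01, 2.97% with one of 0.2 and 0.1% over shared bases. The causes of these moves were not tested. The use of principal transcripts as gene bodies was chosen after seeing the data and changed no count by more than 1.5 times. With the stricter peaks the median covered share in MEF was 31.1% in the cell cycle and 44.9% in the transcriptional members, beside 66.7% and 60.1% with all peaks, so that their order turned. It also turned on bases that no other gene overlaps (64.2% and 64.6%) and among genes covered over at least 25% (69.9% and 80.3%).

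No paired analysis was possible because there was a single H3K36me3 library per condition, which also left no replicate to leave out. Depth limits the calls of weak genes such as Ccnb1, where the absence of a peak says that enrichment was not detectable at this depth.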

Other observations

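Near relatives that the choice of members left out were measured in the same way. Cdk11b, the kinase partner of cyclins L1 and L2, whose symbol ends in a letter, was covered over 88.8%, 91.6%, 80.8% and 91.1% of its body (in the order MEF, MEF B12, OSKM, OSKM B12), with densities of 0.741, 0.879, 0.441 and 0.877. Its densities lay between those of Ccnl1 and Ccnl2 in MEF, MEF B12 and OSKM B12, and just below both in OSKM. On the X chromosome, Cdk16 had densities of 0.312, 0.433, 0.214 and 0.402, and Ccnb3, a meiotic cyclin, had no peak in any list. Ccnyl1, a relative of Ccny on chromosome 1, had 0.117, 0.169, 0.0474 and 0.213, and was the lowest in OSKM of its 4 values, as were Cdk11b and Cdk16.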
